A study of Mus musculus with 14 samples.

Results

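Crh and Npy are genes of secreted neuropeptides, and each was found by its symbol in the tables of differential expression of a mouse lung study. Together they are 2 of the 4658 genes with a row in either table. Crh has a row among the 772 genes of the Men1 table and none in the Kmt2a table. Npy has a row among the 3956 genes of the Kmt2a table and none in the Men1 table. Both were picked with their fold changes known, so the differences that chose them are given as a description and are not evidence of their own.

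The study sequenced total RNA in 14 libraries. Men1 was compared between 4 knockout ("Men1 KO") and 4 wild-type ("WT") libraries, and Kmt2a between 3 knockout ("Kmt2a KO") and 3 wild-type ("WT") libraries. The alleles, the age of the animals, the tissue in which each gene was deleted and any treatment are not given in the sources used here, nor is it said whether each library is a separate animal, so the spread between libraries may be partly technical. Men1 encodes menin, and Kmt2a encodes MLL, a histone H3 lysine 4 methyltransferase that menin binds. The deleted genes themselves are not among the rows of their tables. No loss of their reads is therefore shown, and the genotypes could not be checked.

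The labels name lung, while the extraction protocol speaks of macrophages from the peritoneal cavity. In the authors' deposited table for Kmt2a, 7 of 12 lung epithelial markers have a row, with wild-type means of 1958770 for Scgb1a1 and 26526 for Sftpa1. Of 7 peritoneal macrophage markers only Adgre1 has a row. A row requires a difference between the genotypes, so a missing row does not show that a marker is absent. None of the 12 epithelial and none of the 7 peritoneal markers has a row in the Men1 table, so the source of those libraries was not tested. The total depth of the libraries is unknown, since both tables hold selected genes. The authors' size factors for the Men1 libraries, which scale with depth, ran from 0.811 to 1.38.

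Corticotropin-releasing hormone, encoded by Crh, is made by hypothalamic neurons and drives the release of corticotropin from the pituitary and so of glucocorticoids from the adrenal gland. Neuropeptide Y, encoded by Npy, is a cotransmitter of sympathetic nerves, which reach the vessels and airways of the lung. In mice it is also made by megakaryocytes and carried by platelets. Both peptides are cut from a larger precursor in secretory granules, both end in an amide, and each signals through its own family of G protein-coupled receptors.

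Crh lies on chromosome 3 of GRCm38, from 19693401 to 19695396 on the minus strand, with 2 exons. Npy lies on chromosome 6, from 49822710 to 49829507 on the plus strand, with 4 exons. No other gene annotated in GENCODE M21 overlaps either one. That release holds 512 of the 772 gene IDs of the Men1 table and 3948 of the 3956 of the Kmt2a table. Overlap in the annotation behind the Men1 counts was therefore not checked, and the kit named in the labels does not mark strand. In GENCODE M21 the exons sum to 1320 bases for Crh and 566 bases for Npy. The Kmt2a table gives the same length for Npy, and the Men1 table gives no lengths.

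The coding ends are shown because they carry the step that both products share, the amidation signal. The Crh coding sequence has 564 bases and that of Npy 294 bases, stop codon included, and the last 294 bases of each are given 5′ to 3′ on the coding strand, from the GENCODE M21 transcripts of GRCm38. Capitals mark the codon pairs in frame that read GGNAAA or GGNAAG, which encode a glycine followed by a lysine.
Crh: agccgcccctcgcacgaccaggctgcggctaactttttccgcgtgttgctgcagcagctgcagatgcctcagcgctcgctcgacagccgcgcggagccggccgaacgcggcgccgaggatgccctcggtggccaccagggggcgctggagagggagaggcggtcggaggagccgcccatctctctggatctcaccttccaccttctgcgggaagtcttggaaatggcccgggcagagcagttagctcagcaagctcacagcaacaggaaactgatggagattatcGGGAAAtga
Npy: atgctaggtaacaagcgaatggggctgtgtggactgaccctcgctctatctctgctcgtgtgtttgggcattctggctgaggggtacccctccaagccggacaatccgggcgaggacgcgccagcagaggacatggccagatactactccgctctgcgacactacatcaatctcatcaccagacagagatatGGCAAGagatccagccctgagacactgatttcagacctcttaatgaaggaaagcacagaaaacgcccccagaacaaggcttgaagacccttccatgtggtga
Each window holds 1 such pair. In Crh it stands directly before the stop codon, which holds for 0.544% of the 20974 genes with a complete coding sequence at least as long as the window. In Npy it stands 31 codons before the stop, ahead of the C-terminal flanking peptide. A pair anywhere in the window occurs in 29.4% of these genes.

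Crh was higher in Men1 knockout lung than in wild-type lung, at a low level in both. The knockout libraries stood at 44.4 (KO-6075), 11.6 (KO-6076), 35.6 (KO-6084) and 33.3 (KO-6086) normalized counts. The wild-type libraries stood at 2.36 (WT-6074), 10.5 (WT-6094), 4.83 (WT-6097) and 8.29 (WT-6100). Every knockout library lay above every wild-type library, but the lowest of the knockout, KO-6076, was only 1.10 times the highest of the wild type, WT-6094.

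**Figure D1:**
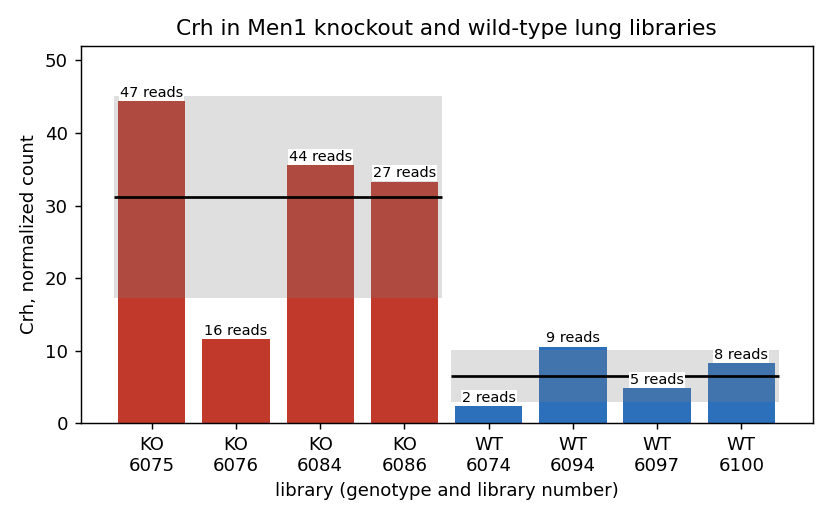
Crh in the 8 Men1 libraries: bars are normalized counts (vertical axis) per library (horizontal axis, genotype and library number), the labels raw reads, lines the group means and grey bands 1 SD either side (n = 4). In the knockout, 3 libraries stand between 33.3 and 44.4, while KO-6076, at 11.6, stands close to the highest wild-type library at 10.5.

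The mean was 31.2 ± 13.9 normalized counts (SD, n = 4) in knockout lung against 6.51 ± 3.62 (n = 4) in wild-type lung, a 4.80-fold difference or a log2 ratio of 2.26. Behind these means are 134 raw reads in the knockout (95% Poisson interval 112 to 159) and 24 in the wild type (15.4 to 35.7). The intervals cover counting error only. In the authors' deposited table the log2 fold change was 2.26, with p = 1.94e-05 and an adjusted p of 0.0150 from their model across all genes. The table also holds raw counts of 2 further wild-type columns that match no sample, and whether these p-values used them is not stated. Crh is 1 of 13 genes of that table with an adjusted p below 0.05, and 1.68% of its 772 genes have one (1.3% higher, 0.389% lower). Of the 772 genes, 557 have no adjusted p and so could not be counted. Libraries did not overlap in 35.5% of the genes of the table (25.3% with the knockout higher), all of which had been selected on the same libraries.

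Within the Men1 table, Crh ranked 5 by p among 772 genes, but 207 by size among the 541 that were higher. Of the 10 genes that were higher with an adjusted p below 0.05, it ranked 4 by size. Among the 197 other genes whose mean over all libraries was within 2-fold of that of Crh, 7 had a log2 fold change at least as large and 4 had an adjusted p below 0.05. The size of the difference depended on how low counts and scaling were handled. A pseudocount of 10 brought the log2 ratio to 1.32, and with size factors re-estimated over the genes of this table, of which 70.1% were higher, it was 1.57.

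The rest of the corticotropin-releasing hormone system gave no further row in the Men1 table. The related ligands Ucn, Ucn2 and Ucn3, the receptors Crhr1 and Crhr2 and the binding protein gene Crhbp have no row, nor has any of 12 genes of the downstream axis, among them Pomc, the precursor of corticotropin, and Nr3c1, the glucocorticoid receptor. A gene without a row either did not pass the authors' selection or was not tested, and it is not analysed here.

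Of 163 other genes of peptide systems (peptides, receptors, processing enzymes and granule proteins), 3 have a row in the Men1 table and none of them had an adjusted p. In the authors' deposited table these 3 had an unadjusted p below 0.05, which is the limit for a row. The authors' notes list DESeq2 but do not say which p-values it gave. Vgf, a granin-like gene of secretory granules, stood at 8.50, 5.08, 11.3 and 16.03 normalized counts in KO-6075, KO-6076, KO-6084 and KO-6086 and at 3.55, 4.68, 3.87 and 4.15 in WT-6074, WT-6094, WT-6097 and WT-6100 (log2 ratio 1.33). Its groups did not overlap, which holds for 35.5% of the genes of the table. Nppc, which encodes C-type natriuretic peptide, ranged from 4.04 to 6.61 in the knockout and from 7.03 to 16.4 in the wild type (log2 ratio −1.09).

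The third is Pnoc, the precursor gene of nociceptin, and it rests on few reads. It stood at 1.89, 2.18, 5.66 and 23.4 normalized counts in KO-6075, KO-6076, KO-6084 and KO-6086, and at 4.73, 0, 0.966 and 0 in WT-6074, WT-6094, WT-6097 and WT-6100. The groups overlapped. Its log2 ratio of 2.54 became 1.19 without KO-6086 and 4.69 without WT-6074.

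No marker of pulmonary neuroendocrine cells (16 in the list), neurons (26) or glia (9) has a row in the Men1 table. The platelet genes Ppbp and Gp9 and the adipocyte gene Lep are the marker list members that do. The platelet pair summed to between 614 and 900 normalized counts in knockout libraries and between 779 and 3530 in wild-type libraries. Lep ran from 0.726 to 6.16 in knockout libraries and from 1.17 to 36.7 in wild-type libraries. In bulk tissue, fewer cells of a type and less RNA per cell cannot be told apart, and the part of these cell types in the Crh difference was not tested.

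Across the 8 libraries, the gene with the pattern most like Crh was Nog, which encodes the BMP antagonist noggin (Pearson r = 0.977 on log2 of the normalized count plus 1, among 234 genes with a mean of at least 10). It was followed by the retinol-binding protein gene Rbp2 (r = 0.942), the retrogene Rnf138rt1 (0.926), the phospholipid flippase gene Atp10b (0.915) and ENSMUSG00000138154 (0.913), which has no symbol in the file. Pak3, a kinase gene, was the most opposite (r = −0.911). These values are descriptive, since the libraries are shared and all genes of the table were selected for a difference between the same groups: the median r with Crh of the genes that were higher was 0.708. By Spearman's rho, 2 of the 5 genes were again among the first 5.

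**Figure D2:**
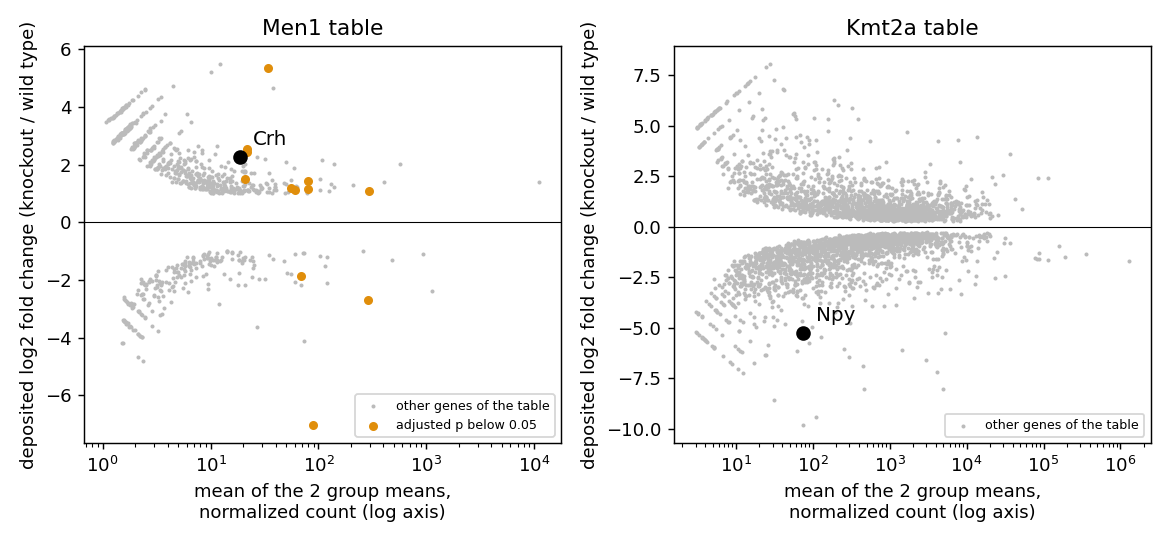
Deposited log2 fold change (vertical axis) against the mean of the group means in normalized counts (horizontal axis, log scale) for every gene of the Men1 table (left) and the Kmt2a table (right); grey points are genes, orange points on the left have an adjusted p below 0.05, and black points are Crh and Npy. Crh (2.26) lies near the upper edge of the genes of its level, and Npy (−5.27) lies below nearly all genes of its level.

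The nearest annotated gene upstream of Crh also has a row in the Men1 table. Gm18864 is a processed pseudogene on the same strand, from 19708270 to 19709320 on chromosome 3, 12873 bases from the start of Crh. It had 7, 3, 4 and 1 raw reads in KO-6075, KO-6076, KO-6084 and KO-6086, and is at 0 in the 4 wild-type libraries, with no adjusted p. The groups did not overlap, which holds for 35.5% of the genes of the table. The knockout reads are few, and reads of a processed pseudogene may be shared with its parent gene, so this row is uncertain.

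The neighbour of Crh on the other side has a row in the Kmt2a table, in which Crh itself has none. Trim55, a muscle ubiquitin ligase gene that ends 979 bases beyond the end of Crh, fell from a deposited mean of 74.1 in the wild type to 12.9 in the knockout (log2 ratio −2.53, adjusted p = 0.0106 in the deposited table). Its libraries overlapped, and leaving out wild-type library a gave −1.67. The coding genes nearest to Npy, Stk31 and Mpp6, have no row in either table.

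Npy fell in Kmt2a knockout lung to a few reads a library. The authors' deposited table gives group means of 147 normalized counts for the wild type against 3.77 for the knockout, and no value per library. The means carry enough digits to recover the whole reads of the 3 libraries behind each of them, called a, b and c, which cannot be tied to single labels. Npy stood at 130 (a), 207 (b) and 104 (c) normalized counts in the wild type, and at 5.95 (a), 3.50 (b) and 1.87 (c) in the knockout. The groups lay far apart: the lowest wild-type library was 17.5 times the highest knockout library, while the wild-type libraries differed among themselves by up to 1.99 times.

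**Figure D3:**
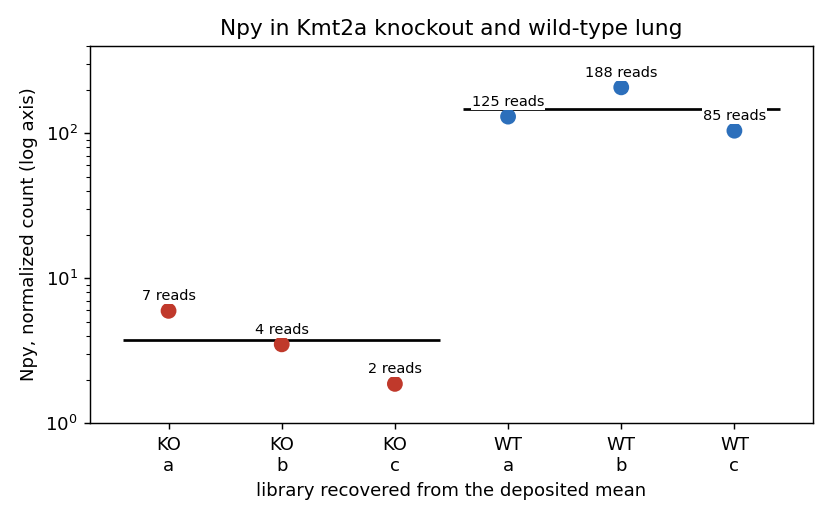
Npy in the libraries recovered from the deposited Kmt2a means: points are normalized counts (vertical axis, log scale) per library (horizontal axis), with the recovered reads beside them, and lines are the deposited group means. The knockout libraries stand between 1.87 and 5.95 and the wild-type libraries between 104 and 207.

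The difference of means was 39.0-fold, a log2 ratio of −5.29. It rests on 13 reads in the knockout (95% Poisson interval 6.92 to 22.2), split into 7, 4 and 2, and on 398 in the wild type (360 to 439), split into 125, 188 and 85. In the authors' deposited table the log2 fold change was −5.27 and the adjusted p 1.42e-18. All genes of that table were selected for an adjusted p below 0.05, so 100% are called there, 49.5% as lower, and nothing is read from Npy being among them. Recovered libraries did not overlap in 97.1% of the 3811 genes with reads recovered in both groups. A pseudocount of 10 brought the log2 ratio to −3.51.

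Npy ranked 58 by p among the 3956 genes and 44 by size among the 1957 that were lower. Among the 1510 protein-coding genes that were lower it ranked 22. For 636 other protein-coding genes of the table, the wild-type mean was within 2-fold of that of Npy. Of these, 323 were lower, and 3 had a log2 fold change as low as that of Npy or lower. Per kilobase of the counted length, Npy stood at 260 normalized counts in wild-type and 6.67 in knockout lung.

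The bases before the Npy start are shown because MLL carries a CXXC domain, a zinc finger known to bind CpG sites that are not methylated. The 250 bases upstream, chr6:49822460-49822709 on the plus strand of GRCm38.p6, are taken from RefSeq, with each CG in capitals.
Npy promoter: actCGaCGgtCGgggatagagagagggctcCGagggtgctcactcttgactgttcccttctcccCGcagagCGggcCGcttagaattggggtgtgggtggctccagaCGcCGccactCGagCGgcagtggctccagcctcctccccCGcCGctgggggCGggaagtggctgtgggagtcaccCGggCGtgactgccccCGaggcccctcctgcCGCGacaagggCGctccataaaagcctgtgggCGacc
They hold 21 CG, more than 83.7% of 32851 RefSeq promoter windows of this length, whose median is 6. The median was 12 in the windows of genes that were lower in the Kmt2a table and 14 in those of genes that were higher. The cAMP response element TGACGTCA, which is its own reverse complement, was not found in the window and occurs in 1.55% of all windows. The shorter TGACG, which lies within it and was sought on both strands, was not found either and occurs in 17.8%. The TATA box TATAAA was not found on either strand (12.4% of windows), while the A-rich ATAAAA was found at 1 place (16.97% of windows). These are counts of letters and say nothing of what binds there. Crh has no entry in the promoter table.

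Of the receptors for the neuropeptide Y family, 2 of 5 have a row in the Kmt2a table, 1 on each side. Npy4r, the receptor that pancreatic polypeptide binds best, fell from 14.6, 16.5 and 40.4 normalized counts in wild-type libraries a, b and c to 2.55, 1.75 and 5.60 in knockout libraries a, b and c (log2 ratio −2.85, adjusted p = 0.00315 in the deposited table). Its log2 ratio was −2.24 without wild-type library c and −3.47 without knockout library c. Npy1r, a receptor through which neuropeptide Y constricts vessels, rose from 132, 80.5 and 144 to 168, 333 and 221 (log2 ratio 1.02, adjusted p = 0.0299 in the deposited table). In neither gene did the libraries overlap, which holds for 97.1% of the genes with reads recovered in both groups. The other ligands of the family, Pyy and Ppy, and the receptor genes Npy2r, Npy5r and Npy6r have no row.

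Among genes of enzymes that cut neuropeptide Y, Xpnpep2, an aminopeptidase P gene, fell from a mean of 162 to 42.3 (log2 ratio −1.93, adjusted p = 1.19e-08 in the deposited table). Its wild-type order matched that of Npy, highest in library b at 196 and lowest in library c at 138. Its knockout order did not, lowest in library a at 30.6, in which Npy was highest. So few libraries can share an order by chance, and the match was not tested. Dpp4, whose product removes the first residues of the peptide and so changes which receptors it binds, has no row, nor have Fap, Mme and Ace.

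Of 18 genes of precursor processing and secretory granules, 4 have a row, 3 higher and 1 lower. Cpe, the carboxypeptidase that trims basic residues after cleavage, fell from 1731 to 750 (log2 ratio −1.21, adjusted p = 1.08e-05 in the deposited table). The granule membrane genes Ptprn2 and Ptprn rose, with log2 ratios of 2.62 and 1.58, and the convertase gene Furin rose with 0.88. Pcsk1 and Pcsk2, the convertases of neuroendocrine granules, Pam, the amidating enzyme, and the granin genes Chga and Chgb have no row.

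Among 58 genes of other neuropeptides and peptide hormones, 9 have a row in the Kmt2a table, 7 lower and 2 higher, where 49.5% of all its genes were lower. The median deposited log2 fold change of the 9 was −1.30, against 0.32 over the table, which holds only genes selected for a difference. Nts (neurotensin) fell the most, from a mean of 15.2 to 1.14 (log2 ratio −3.73), with 3, 1 and 0 reads in the knockout libraries, and its log2 ratio was −2.70 without wild-type library c and −5.12 without knockout library a. The vessel peptide gene Apln (apelin) followed at −1.71, then Npb (−1.52), Npff (−1.47), the enkephalin precursor gene Penk (−1.30) and Npw (−1.28, and −1.90 without knockout library b). The seventh of these genes fell the least. Edn3 (endothelin 3) rose with a log2 ratio of 1.25, and Apela rose from 1 read in the 3 wild-type libraries to 21 in the knockout. None of the 7 fell as far as Npy. Libraries overlapped in none of these 9 genes, as in 97.1% of the genes with reads recovered in both groups. Which of them reach the table was set by the authors' selection.

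**Figure D4:**
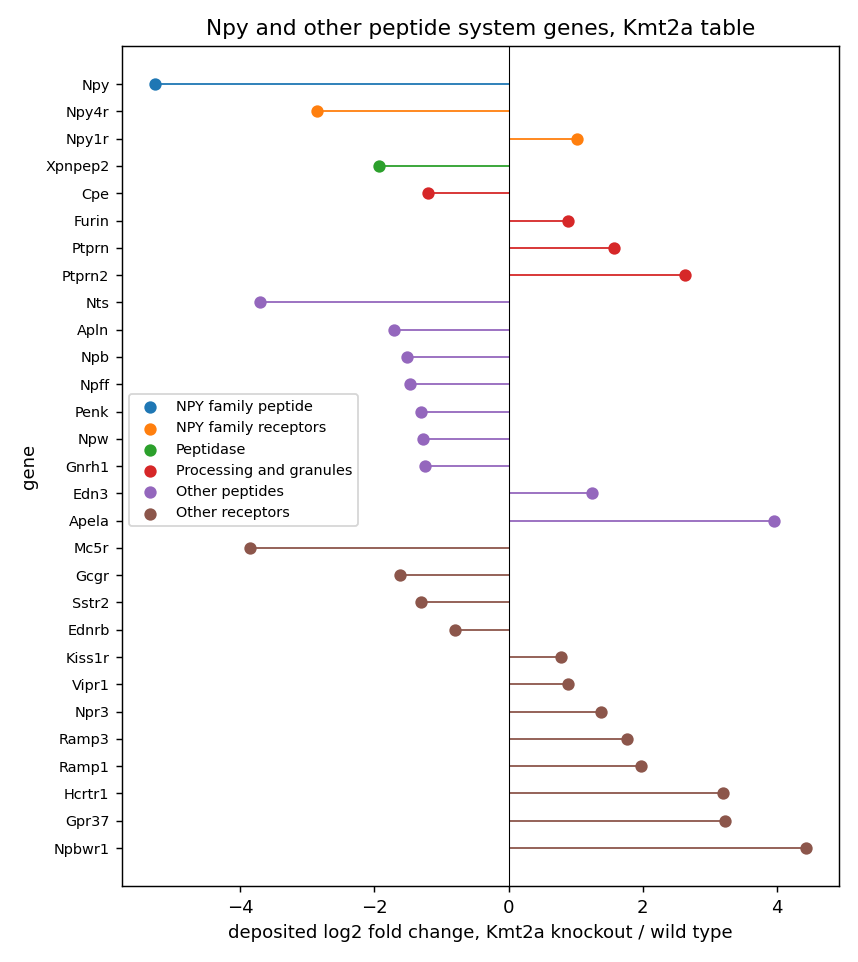
Deposited log2 fold change (horizontal axis, Kmt2a knockout over wild type) of Npy and the 28 other genes of the peptide lists with a row in the Kmt2a table (vertical axis, grouped by role and colour). Npy, at −5.27, is the most negative; 14 of the 28 others are lower and 14 higher.

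Of 69 other peptide receptor genes 12 have a row, 8 higher and 4 lower. Npbwr1, the receptor for neuropeptides B and W, rose from 4.17, 0 and 18.4 normalized counts in wild-type libraries a, b and c to 161, 130 and 186 in the knockout (log2 ratio 4.40, and 6.25 without wild-type library c), while the genes of both its ligands, Npb and Npw, fell. Ramp1, which turns the calcitonin receptor-like receptor into a receptor for calcitonin gene-related peptide, rose from a mean of 372 to 1466 (log2 ratio 1.98, adjusted p = 9.08e-17 in the deposited table), and Ramp3 rose with 1.77. The orphan receptor gene Gpr37 (3.23), Hcrtr1 for orexins (3.14) and Npr3, which clears natriuretic peptides (1.37), were also higher, as were 2 further receptor genes with smaller log2 ratios. Mc5r fell from a mean of 16.98 to 1.17 (log2 ratio −3.86). Gcgr (−1.62), Sstr2 (−1.30) and Ednrb (−0.80) fell less. Npr3 was the 1 gene of these 12 whose libraries overlapped, where 97.1% of the genes with reads recovered in both groups show no overlap. Leaving out wild-type library c moved Hcrtr1 to 4.73, and Gpr37 was 2.48 without knockout library b and 3.95 without wild-type library a.

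Over all 163 genes of the peptide lists besides Crh and Npy, 28 have a row in the Kmt2a table, 14 higher and 14 lower. Their median deposited log2 fold change was −0.01, which lies in the gap between the lower and the higher genes and describes none of them. Of all genes with a row, 50.5% were higher.

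Crh has no row in the Kmt2a table, but 3 of 12 genes of its downstream axis do. Hsd11b2, whose product inactivates glucocorticoids, rose from 46.9, 48.5 and 31.8 normalized counts in wild-type libraries a, b and c to 377, 126 and 97.1 in knockout libraries a, b and c (log2 ratio 2.24, adjusted p = 0.000712 in the deposited table, and 1.39 without knockout library a). Fkbp5, a glucocorticoid-induced co-chaperone of the receptor, rose with 1.30. Per1, a clock gene that glucocorticoids also induce, fell with −1.37, and with −2.02 without knockout library b.

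Some markers of cell types that can hold neuropeptide Y were lower in the same knockout lungs, while others were higher or had no row. Of all genes of the Kmt2a table, 49.5% were lower. All 4 platelet genes with a row, of 16 in the list, were lower (Gata1 −2.10, Gp6 −1.97, Gp5 −1.37 and Clec1b −1.29 as log2 ratios, with Gata1 at −1.51 without wild-type library b), and none is at 0 in the knockout. Their sum was 1806, 2041 and 918 normalized counts in wild-type libraries a, b and c, and 367, 816 and 687 in the knockout. The wild-type order was that of Npy and the knockout order was not, and so few libraries can share an order by chance. The lowest knockout library kept 23.1% of the mean wild-type platelet sum, most of which is Clec1b (wild-type mean 1275 of 1588). Npy stood at 1.27% to 4.05% of its own wild-type mean.

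Of the neuroendocrine list, Ddc, the gene of an enzyme of amine synthesis, was lower at a log2 ratio of −1.51. Of 26 neuronal markers 3 have a row. Hand2, a transcription factor gene, and Elavl4, an RNA-binding protein gene, were lower, with log2 ratios of −2.82 and −2.51. Elavl4 was at −1.71 without wild-type library a, and Hand2 at −3.80 without knockout library c. Both were highest in wild-type library a and lowest in b, the order of the cardiac muscle sum given below. Slc6a2, the noradrenaline transporter gene, rose from a mean of 557 to 2340 (2.07). Th and Dbh, the enzymes that make noradrenaline, have no row.

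All 19 cardiac muscle genes with a row, of 22, were lower, where 49.5% of all genes of the table were lower. The sum of the 17 with recovered reads ran from 16057 to 83191 in the wild type and from 4597 to 9152 in the knockout. It was highest in wild-type library a and lowest in b, in which Npy was highest. Without wild-type library a, an alternative chosen after seeing the data, the knockout libraries stood at 16.3% to 32.5% of the mean wild-type cardiac sum, against 9.89% to 19.7% with it.

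Lung epithelial markers mostly went the other way: of the 7 with a row, 6 were higher in the knockout, among them Sftpa1 (log2 ratio 2.42), Sftpd (2.12) and Pdpn (1.92, and 2.61 without wild-type library a), and Scgb1a1 was lower (−1.68). The part of platelets, nerves, neuroendocrine cells, cardiac muscle and epithelium in the Npy difference was not tested.

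**Figure D5:**
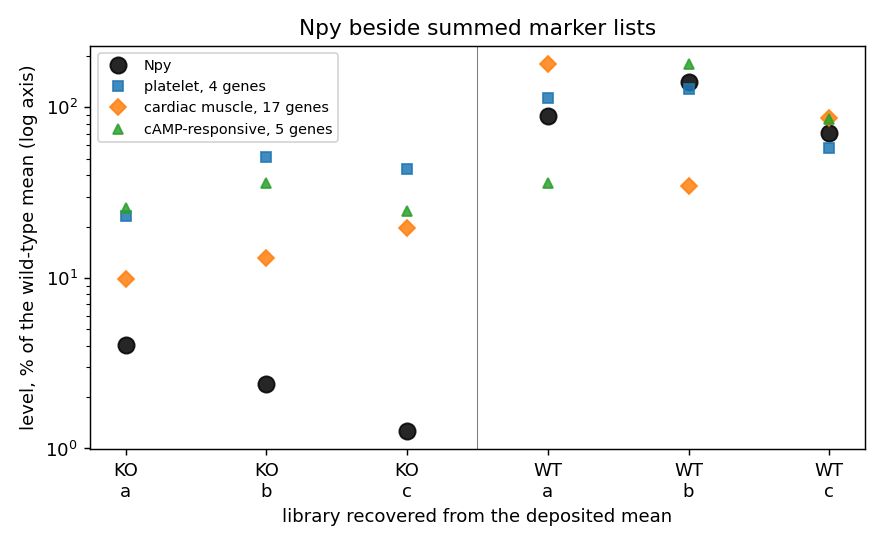
Npy and summed marker lists in the recovered Kmt2a libraries (horizontal axis), each as a percentage of its own wild-type mean (vertical axis, log scale). In the knockout, Npy stands at 1.27% to 4.05%, the platelet sum at 23.1% to 51.4% and the cardiac sum at 9.89% to 19.7% (16.3% to 32.5% without wild-type library a). Most of the platelet sum is Clec1b. The sum of 5 cAMP-responsive genes stands at 24.7% to 36.0% in the knockout. In the wild type it stands at 35.8% to 179%, so its groups overlap. It includes Rest, which was higher in the knockout, and leaves out Nr4a1, whose wild-type reads were not recovered.

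Across the 6 recovered libraries, the genes with the pattern most like Npy were Ndor1 (Pearson r = 0.9999), Slc7a6os (0.998), Rbm12b1 (0.998), Gm10093 (0.997) and Aoc2 (0.996), out of 3642 genes with a mean of at least 10. Anxa4 was the most opposite (r = −0.998). These genes share the shape of Npy and not its size: Ndor1 fell from a deposited mean of 1181 to 715, a deposited log2 fold change of −0.72. All genes of the table differ between the same groups: the median r with Npy over the genes that were lower was 0.896, and 48 genes tie at the first places by Spearman's rho, all of the 5 among them.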

How the data were processed

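RNA of 14 mouse libraries (4 Men1 knockout and 4 wild type, 3 Kmt2a knockout and 3 wild type) was prepared with an NEBNext Ultra kit, per the labels' protocols. Per the submitters' processing notes, which give no role or order, the tools were DESeq2 1.16.1, featureCounts 1.5.0-p3 and HISAT2 2.0.5, and the builds GRCm38 and mm10. For Men1 the authors deposited raw read counts and normalized counts (a signal in reads divided by a size factor) per library, with log2 fold changes and p-values. All of its 772 genes differ by at least 1 on the log2 scale with p below 0.05, and 557 have no adjusted p. For Kmt2a the authors deposited group means of normalized counts (signal), log2 fold changes and p-values for 3956 genes, all with an adjusted p below 0.05. The Men1 table has 2 further wild-type columns of raw counts, without normalized counts, that match no sample and were not used, and 231 rows without a symbol.

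The members, the gene lists and the rules were chosen with earlier results of these data known. No test was run on the members or lists: p-values are the authors' deposited ones. Log2 ratios are of group means of normalized counts, without a pseudocount. They differ from the deposited log2 fold changes by at most 0.0153 for Crh and Npy. Each Kmt2a mean up to 10000 was searched for the whole reads of 3 libraries that give its deposited digits. This resolved 3839 of 3853 knockout means and 3878 of 3878 wild-type means, and was tested on simulated data. A read was worth 0.850 to 0.933 normalized counts in the knockout libraries and 1.04 to 1.22 in the wild-type libraries. Named genes are the list members with a row (at most 6 per direction in long lists), the 5 most alike and the 1 least alike genes by Pearson r of log2 of the normalized count plus 1, and adjacent annotated genes with a row. Some list members are not reported here. Poisson intervals are exact. Python 3.11.15, numpy 2.4.6, pandas 2.3.3, scipy 1.17.1, numba 0.67.0 and matplotlib 3.10.9 were used, with GENCODE M21 for loci and coding sequences and RefSeq for promoters. Alternatives covered the pseudocount, scaling, filters on low values, the call rule, Spearman's rho and leaving out each library.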

Additional observations from a re-analysis of the deposited data

Results flagged for a closer look

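In groups of 4 libraries, 27 sets of values were examined for 1 library far from the others, and 2 sets had one, where chance flags about 1 in 20. Both are platelet genes in the same wild-type library of the Men1 comparison, WT-6094. Ppbp, which encodes a platelet chemokine, stood at 2797 normalized counts there, against 583 to 899 in the other 3 wild-type libraries. Gp9, a subunit of the platelet von Willebrand factor receptor, stood at 733, against 196 to 237. Without WT-6094 the log2 ratio of Ppbp moved from −1.10 to −0.36 and that of Gp9 from −1.01 to −0.33. Crh was also highest in WT-6094 among the wild-type libraries, at 10.5 normalized counts, and its log2 ratio without that library was 2.60.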

How the results depend on the processing

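The log2 ratios of Crh (2.26) and Npy (−5.29) kept their direction under every alternative run. With a pseudocount of 10 they were 1.32 and −3.51, and with a pseudocount of 1 they were 2.10 and −4.96. With size factors re-estimated over the genes of each table they were 1.57 and −5.28. Leaving out each library in turn gave 1.98 to 2.60 for Crh and −5.78 to −4.96 for Npy. The count of other peptide genes called in the Men1 table was 0 by adjusted p and 3 by unadjusted p, which is how that table was selected. In the Kmt2a table the count was 28, and 21 with a mean of at least 50. By Spearman's rho 2 of the 5 genes most like Crh were again among the first 5. No paired analysis was possible because the groups compared share no replicate numbers. Alternatives for Crh in the Kmt2a comparison and Npy in the Men1 comparison were not run, since those rows are missing from the tables analysed. Depth limits Npy in the knockout, with 13 reads, and Crh in the wild type, with 24.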

Other observations

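The adipocyte hormone gene Lep has a row in both tables. In the Men1 comparison it had 5, 1, 1 and 5 raw reads in KO-6075, KO-6076, KO-6084 and KO-6086 and 31, 1, 34 and 13 in WT-6074, WT-6094, WT-6097 and WT-6100, with an adjusted p of 0.0868 in the authors' deposited table. In the Kmt2a comparison it is at 0 in the 3 knockout libraries, and at 21.9, 0 and 7.35 normalized counts in wild-type libraries a, b and c. Of 11 adipocyte genes 6 have a row in the Kmt2a table, 5 lower and 1 higher, where 49.5% of all its genes were lower. Lpl, the lipoprotein lipase gene, was higher (log2 ratio 1.40, and 2.05 without wild-type library a), and Pparg was lower at −0.50. The others besides Lep were highest in wild-type library a: without it the log2 ratio of Plin1, a lipid droplet gene, moved from −3.90 to −0.81, that of Adipoq from −3.42 to −0.84 and that of Fabp4 from −1.94 to −0.38.

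Of 15 genes in a list of cAMP-responsive genes, 6 have a row in the Kmt2a table, 5 lower and 1 higher, where 49.5% of all genes of the table were lower. The other 9 have no row, and no test of the list was run. The nuclear receptor genes Nr4a1, Nr4a3 and Nr4a2 had deposited log2 fold changes from −3.32 (Nr4a1) to −1.82 (Nr4a2), and Fosb −2.49. Egr1 had a log2 ratio of −2.14, with overlapping libraries, and −1.03 without wild-type library b. Rest, a repressor of neuronal genes, was higher at 0.63.

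Of the glial list, the Schwann cell factor gene Sox10 was lower in the Kmt2a knockout (from a mean of 42.2 to 10.5, with a log2 ratio of −1.37 without wild-type library c), while S100b (1.87) and Mbp (0.64) were higher. Of 8 alveolar macrophage genes 3 have a row, with Chil3 and Plet1 higher and Fabp1 lower.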
